A study of Rattus norvegicus with 12 samples.

Results

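The myosin and actin isoforms that the heart exchanges between fetal and adult life were followed in the left ventricle of rats on a high-fructose diet. The 8 genes are Myh6 and Myh7, which encode the myosin heavy chains alpha and beta, Acta1 and Actc1, which encode skeletal and cardiac alpha-actin, and the myosin light chain genes Myl2, Myl3, Myl4 and Myl7. They were chosen by name, as all array probes whose target accession belongs to one of these rat genes, and they are 8 of the 15715 genes with a symbol on the array. Each gene had 1 probe, printed 1 time, well above background on all 12 arrays and saturated on none, so no second probe checks any of them.

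The study compared salt restriction and angiotensin II in a rat model of metabolic syndrome. The 4 groups were low sodium with angiotensin II (AngII), normal sodium with AngII, low sodium and normal sodium, with 3 one-colour arrays each, all of left ventricle from male Sprague-Dawley rats whose age is not given in the sources used here. Every rat, controls included, ate 60% fructose for 8 weeks, so no group on standard chow was compared. The low sodium food held under 0.01% NaCl and the normal food 0.64%, and AngII was infused under the skin at 200 ng/kg/min over the final 4 weeks in the AngII groups and not in the others. The labels do not say how the arrays relate to single animals, so the p-values measure the spread between these 12 samples.

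Myosin heavy chains are the motors of the thick filament, and each carries an essential and a regulatory light chain, while alpha-actin forms the thin filament they pull on. In the rat, the fast alpha heavy chain is the main form of the adult ventricle, and the slow beta form predominates before birth. Under pressure overload or a lack of thyroid hormone, Myh7 and Acta1 are known to be re-expressed while Myh6 declines, which is why they are read as a fetal gene programme. Myl2 and Myl3 encode the regulatory and essential light chains of the adult ventricle. Myl7 and Myl4 encode the atrial regulatory and essential light chains, and Myl4 is also made in the fetal ventricle.

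The annotated promoter windows of both actin genes and both heavy chain genes are shown because the isoform ratios rest on these genes. Each is the 250 bases upstream of the annotated start, and that of Actc1 runs 12 bases further, to the end of its match. Capitals mark the CArG box, which binds serum response factor, and the MCAT element (CATTCC), which binds TEAD factors. The sequences are from RefSeq, build GRCr8, and all 4 genes lie on the minus strand, Acta1 at chr19:68784195-68784444, Actc1 at chr3:121271816-121272077, Myh6 at chr15:32411698-32411947 and Myh7 at chr15:32438195-32438444. In the Myh7 entry a start codon and coding sequence follow just past the annotated start. The Myh7 window may therefore be intron and not the promoter in use, which was not tested.
Acta1: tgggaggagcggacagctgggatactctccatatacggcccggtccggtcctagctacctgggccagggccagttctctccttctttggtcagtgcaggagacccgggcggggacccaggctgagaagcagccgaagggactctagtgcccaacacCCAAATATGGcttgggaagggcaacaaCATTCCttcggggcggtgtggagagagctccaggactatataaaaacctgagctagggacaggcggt
Actc1: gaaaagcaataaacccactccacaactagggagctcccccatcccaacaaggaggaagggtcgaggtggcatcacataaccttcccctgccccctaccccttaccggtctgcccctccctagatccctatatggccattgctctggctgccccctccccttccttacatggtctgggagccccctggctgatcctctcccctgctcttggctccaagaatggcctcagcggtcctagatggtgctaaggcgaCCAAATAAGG
Myh6: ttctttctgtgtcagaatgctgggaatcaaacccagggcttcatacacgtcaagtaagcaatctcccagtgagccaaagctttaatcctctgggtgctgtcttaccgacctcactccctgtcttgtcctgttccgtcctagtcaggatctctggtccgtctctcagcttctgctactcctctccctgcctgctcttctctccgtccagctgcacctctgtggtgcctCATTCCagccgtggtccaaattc
Myh7: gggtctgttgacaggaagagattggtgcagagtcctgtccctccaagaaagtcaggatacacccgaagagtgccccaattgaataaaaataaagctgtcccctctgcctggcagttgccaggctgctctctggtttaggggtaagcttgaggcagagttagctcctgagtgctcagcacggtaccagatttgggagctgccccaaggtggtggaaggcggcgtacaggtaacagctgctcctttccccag

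RefSeq promoter entries were matched for 7 of the 8 genes, and Myl2 was not matched. Both strands of the 300 bases from 250 before to 50 after the start were searched for 4 motifs. The CArG box was in 3 genes, as CCAAATATGG at position -94 of Acta1, CCAAATAAGG at position 3 of Actc1 and CCTTTTATGG at position -97 of Myl3, counted from 1 at the start with no 0. It was in 1.64% of 33469 rat promoters of that length. The MCAT letters were in Acta1, Myh6 and Myl3 and in 14.2% of all promoters, and the TATA box (TATAAA) was in Acta1 and Myl4 and likewise in 14.2% of all. The E-box (CANNTG) was in 6 of the genes, all but Actc1, and in 72.1% of all promoters. No motif overlapped another. A match describes the letters in this window and is not evidence of a bound site. Myh7 had no MCAT match in its window, which runs into coding sequence past the annotated start. Bases further upstream were not searched, so no lack of an MCAT element in the Myh7 promoter is read from this.

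All values below are log2 processed signals minus the 75th percentile of their array, so 0 is the level of that percentile, and levels of different probes are not set against each other. That percentile was at 1399 to 1988 intensity units, over a median local background of 20 to 29.5. The 3 arrays of a group lay on 3 slides, always at the same place, so place and group cannot be told apart. The normal sodium array of replicate 1 stood apart: it had 88 non-uniform spots, where no other array had over 3, and its array weight of 0.245 was the lowest. Several values that it moves are given with and without it. In the list of ventricular markers Tnnt2, cardiac troponin T, was between 7.75 and 8.24. All 7 of the 8 ventricular markers that are on the array were well above background on all 12 arrays. Of the 8 atrial markers 6 were well above background on all 12 arrays, Mybphl on 7 and Bmp10 on 0. These levels show cardiac muscle and do not by themselves tell ventricle from atrium. In whole tissue, fewer cells of a type and less RNA per cell cannot be told apart.

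None of the 8 genes passed the test in any of the 7 comparisons fitted, which were AngII on each diet, low sodium in infused and in uninfused rats, the mean AngII and mean low sodium effects, and the interaction. With limma and Benjamini-Hochberg adjustment over 20020 probes, 0 of 8 genes and 0% of all probes passed an adjusted p of 0.05 in each comparison. The lowest adjusted p of a member was 0.467, for Myh7 and the mean low sodium effect. At an unadjusted p under 0.05 there was 1 member, Acta1, in the mean AngII effect, where 2.88% of all probes (576) passed. Over the 7 comparisons, 342 to 2508 probes were under that unadjusted threshold. The median log2 difference of the 8 genes was between -0.10 and 0.04 over the 7 comparisons, against -0.05 to 0.02 for all probes tested.

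The 3 arrays of each group overlapped for all 8 genes in the 4 comparisons between groups that differ in 1 factor. Among all probes, 13% did not overlap for AngII on normal sodium and 6.12% for AngII on low sodium. The share was 10.9% for low sodium without AngII and 22.2% for low sodium with AngII. When the 4 groups were ordered by their mean for each gene, all 24 pairs of neighbouring groups overlapped, and all 24 differed by less than the pooled within-group SD of that gene; ordering by the mean sets the closest groups side by side, so this describes the order and is no test.

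**Figure D1:**
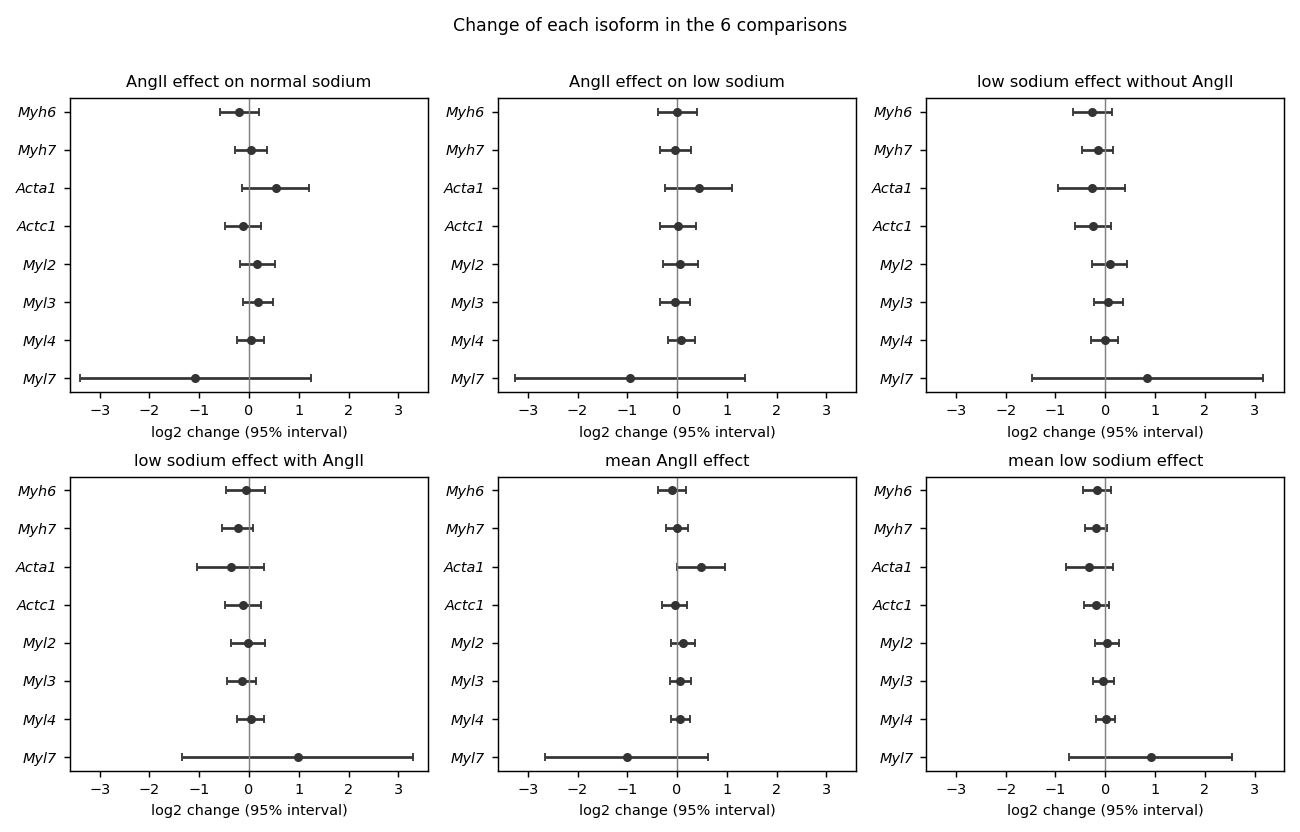
Log2 change (x axis) of each of the 8 genes (y axis) in 6 comparisons, with points for the limma estimate and bars for its 95% interval. Every interval spans 0 except that of Acta1 in the mean AngII effect, which starts at 0.01, and those of Myl7 are the widest.

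**Figure D2:**
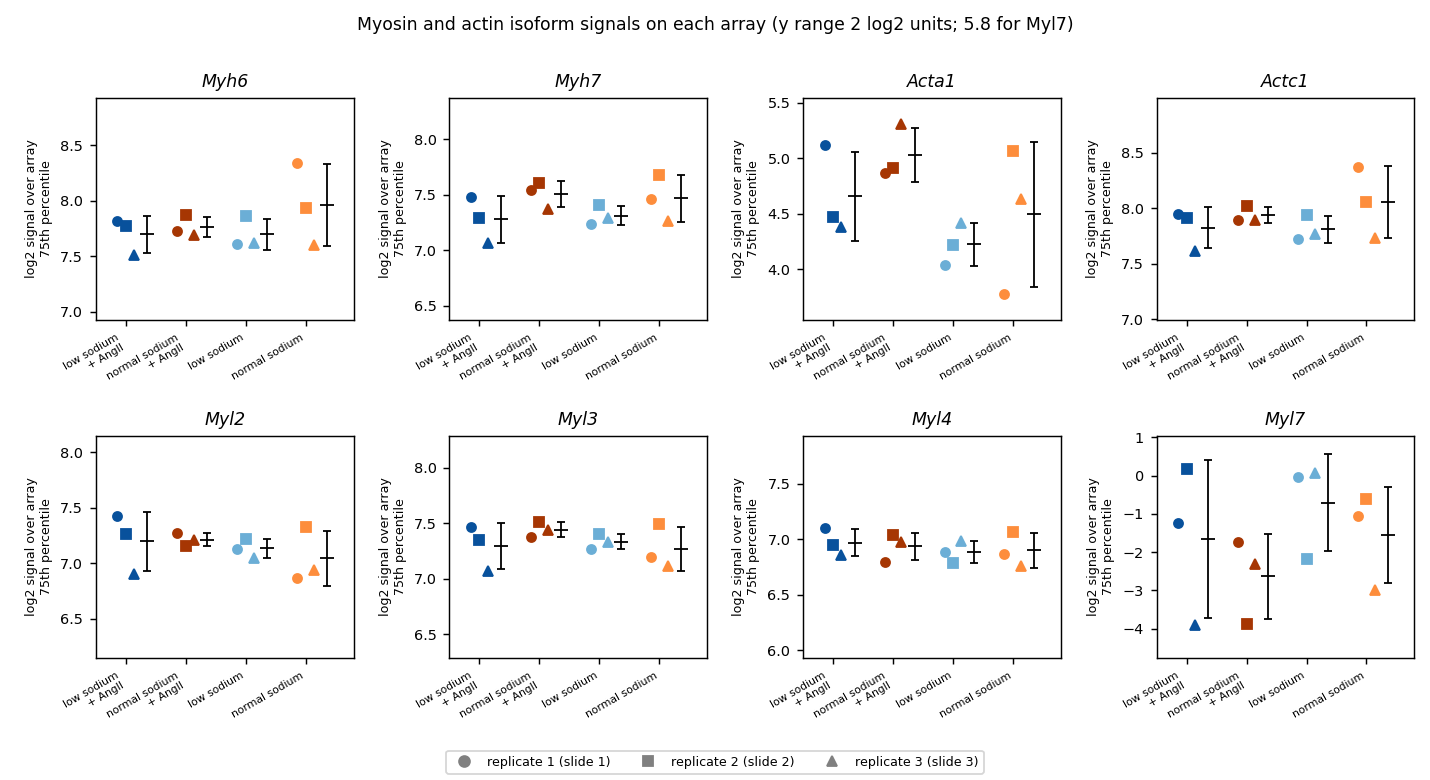
Log2 signal over the array's 75th percentile (y axis) of each gene on the 12 arrays, by group (x axis), with marker shape for the replicate (slide); the black bar is the group mean ± SD (n = 3). Acta1 spans 1.53 and Myl7 4.06 log2 units, while the other 6 genes span between 0.34 and 0.83.

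Myh7, the beta heavy chain, had lower means on low sodium than on normal sodium, with and without AngII, but within the spread of the arrays. Its values were 7.48, 7.29 and 7.06 in low sodium with AngII, and 7.54, 7.60 and 7.37 in normal sodium with AngII. Without AngII they were 7.24, 7.40 and 7.29 on low sodium, against 7.46, 7.68 and 7.26 on normal sodium. The order of the group means was normal sodium with AngII, normal sodium, low sodium, and low sodium with AngII, with the ranges of the groups overlapping. The mean low sodium effect was -0.19 ± 0.10 (SE, n = 3 arrays per group), a 1.14-fold lower signal, with a limma adjusted p of 0.467. Myh7 was lower on low sodium in 5 of 6 slide pairs, and the slides gave -0.14, -0.29 and -0.14. With AngII the difference was -0.23 ± 0.14 and lower on all 3 slides. The mean AngII effect on Myh7 was 0.00 ± 0.10, with a 95% interval from -0.22 to 0.23.

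Myh6, the alpha heavy chain, had 7.82, 7.77 and 7.51 in low sodium with AngII, and 7.72, 7.87 and 7.69 in normal sodium with AngII. The uninfused groups had 7.61, 7.86 and 7.62 on low sodium and 8.34, 7.93 and 7.60 on normal sodium. The highest value was that of the normal sodium array of replicate 1, and the other 11 lay between 7.51 and 7.93. The AngII effect on normal sodium was -0.20 ± 0.18 (adjusted p = 0.785), and -0.01 ± 0.15 without that array. The low sodium effect without AngII was -0.26 ± 0.18 (adjusted p = 0.787), and -0.07 ± 0.15 without it. The mean AngII effect was -0.10 ± 0.12, with a 95% interval from -0.37 to 0.18, and 0.00 ± 0.10 without the array.

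The ratio of Myh7 to Myh6, the usual index of a shift toward the fetal heavy chain, was taken within each array and centred on the median of the 12 arrays. It was 0.00, -0.14 and -0.11 in low sodium with AngII, and 0.16, 0.08 and 0.02 in normal sodium with AngII. All 3 low sodium values were under all 3 normal sodium values, and the mean difference was -0.17, lower on 3 of 3 slides. Among all single probes 22.2% did not overlap in this comparison, and no such share was computed for ratios. The exact two-sided permutation test gave p = 0.1, the smallest that 3 arrays against 3 allow, and an adjusted p of 0.6 over 24 ratio tests. Without AngII the ratio was -0.03, -0.12 and 0.01 on low sodium and -0.55, 0.09 and 0.00 on normal sodium, a mean difference of 0.11 that is -0.09 without the normal sodium array of replicate 1. The AngII effect on the ratio was 0.24 on normal sodium, 0.04 without that array, and -0.04 on low sodium. The mean AngII effect was 0.10, up in 3 of 6 slide pairs (exact permutation p = 0.54, adjusted p = 0.758), and 0.00 without that array.

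Acta1, the skeletal alpha-actin that is the fetal isoform of the rat heart, had higher means in both AngII groups than in both uninfused groups. Its values were 5.12, 4.47 and 4.38 in low sodium with AngII, and 4.87, 4.91 and 5.31 in normal sodium with AngII. They were 4.04, 4.21 and 4.42 in low sodium, and 3.78, 5.07 and 4.64 in normal sodium. The 3 values of normal sodium with AngII were all above the 3 of low sodium, groups that differ in both factors and that the design does not compare. In the comparisons between groups that the design covers, the Acta1 values overlapped, while 6.12% to 22.2% of all probes did not. No such share was computed for the pair that differs in both factors, so no conclusion is drawn from it.

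The mean AngII effect on Acta1 was 0.48 ± 0.22, a 1.40-fold higher signal with a 95% interval from 1.00-fold to 1.95-fold, and a limma adjusted p of 1.00. The slides gave 1.08, 0.05 and 0.32, and Acta1 was higher with AngII in 4 of 6 slide pairs. The effect was 0.53 ± 0.31 on normal sodium and 0.43 ± 0.31 on low sodium, with an interaction of -0.10 ± 0.43 (adjusted p = 0.985), which was 0.26 ± 0.33 without the normal sodium array of replicate 1. The difference was largest on slide 1: without that slide the mean AngII effect was 0.18 ± 0.15, and without the normal sodium array of replicate 1 it was 0.31 ± 0.17. On normal sodium the AngII effect was 0.18 ± 0.25 without that array.

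The mean low sodium effect on Acta1 was -0.32 ± 0.22 (adjusted p = 0.58), and -0.50 ± 0.17 without the same array (adjusted p = 0.298). Acta1 is the major actin of skeletal muscle, so markers of that tissue are given beside it. Over the 8 of 9 skeletal markers on the array the summed signal was between -1.66 and -0.91 in low sodium with AngII, and between -1.44 and -1.11 in normal sodium with AngII. It was between -1.38 and -1.15 in low sodium and between -1.65 and -1.04 in normal sodium, so the groups overlapped. Myh4, Tnnt3, Tnni2, Myl1 and Atp2a1 were well above background on all 12 arrays, Actn3 on 8, Myh2 on 6 and Myh1 on 0. Over the 12 arrays Myh2 correlated with Acta1 at r = 0.73, and the other 7 skeletal markers had r between -0.31 and 0.14, given as a description. The part of such tissue in the Acta1 values was not tested.

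Actc1, the cardiac alpha-actin of the adult heart, had 7.95, 7.91 and 7.61 in low sodium with AngII, and 7.89, 8.02 and 7.90 in normal sodium with AngII. It had 7.72, 7.94 and 7.76 in low sodium and 8.37, 8.06 and 7.73 in normal sodium, with the highest value on the normal sodium array of replicate 1. The mean AngII effect was -0.05 ± 0.12 and the mean low sodium effect -0.18 ± 0.12 (adjusted p = 0.558), which is -0.10 ± 0.10 without that array. The 95% interval of the mean AngII effect on Actc1, -0.30 to 0.20, runs from 0.81-fold to 1.15-fold.

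The ratio of Acta1 to Actc1 was 0.34, -0.26 and -0.06 in low sodium with AngII, and 0.15, 0.06 and 0.59 in normal sodium with AngII. In the uninfused groups it was -0.51, -0.55 and -0.17 on low sodium, and -1.42, 0.18 and 0.08 on normal sodium. Without AngII, 2 arrays, both of normal sodium, had a ratio above 0. The mean AngII effect was 0.53, higher in 5 of 6 slide pairs (exact permutation p = 0.06, adjusted p = 0.6), and 0.28 without the normal sodium array of replicate 1. On low sodium the ratio was higher with AngII on 3 of 3 slides, by 0.85, 0.29 and 0.11, with a permutation p of 0.2.

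**Figure D3:**
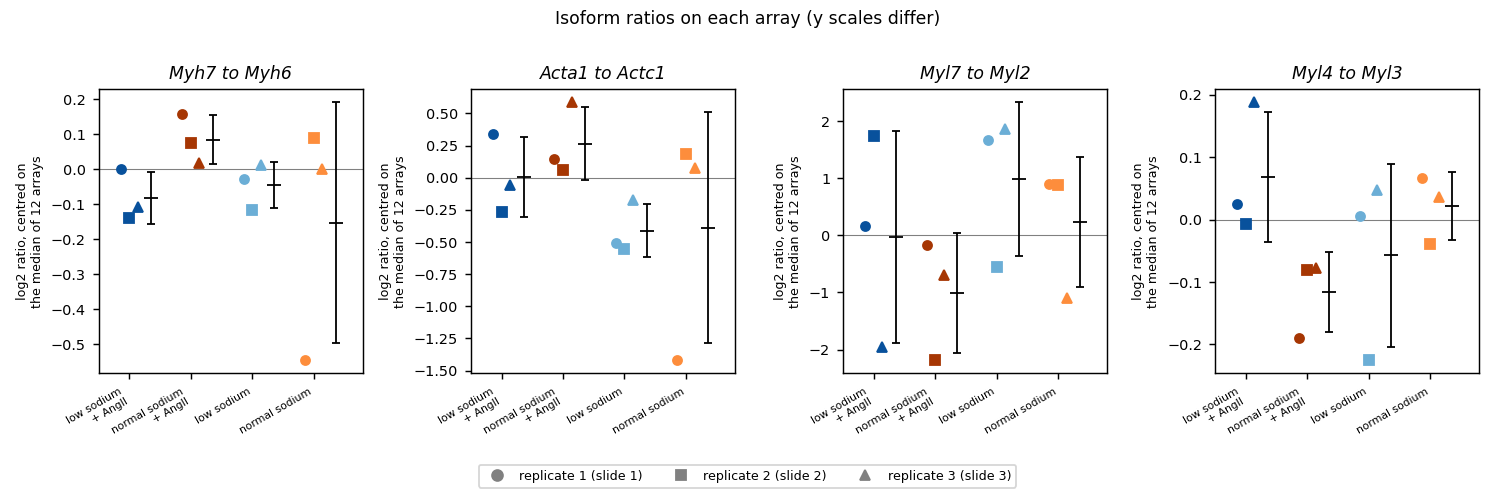
Centred log2 isoform ratios (y axis) on the 12 arrays by group (x axis), with marker shape for the replicate (slide) and the group mean ± SD (n = 3) in black. The Myh7 to Myh6 and Acta1 to Actc1 ratios are lowest on the normal sodium array of replicate 1, at -0.55 and -1.42.

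Under this scaling the light chains of the ventricle differed little between arrays. Myl2, the regulatory chain, was between 6.87 and 7.42 over the 12 arrays, lowest on the normal sodium array of replicate 1 and highest on the low sodium with AngII array of replicate 1. Its range was 0.55 here, 0.83 in the authors' values and 1.04 with normexp background correction. Its mean was 7.20 ± 0.27 (SD, n = 3) in low sodium with AngII, 7.21 ± 0.06 in normal sodium with AngII, 7.13 ± 0.09 in low sodium and 7.04 ± 0.24 in normal sodium. Myl3, the essential chain, was between 7.07 and 7.51, with a mean of 7.30 ± 0.21 in low sodium with AngII, 7.45 ± 0.06 in normal sodium with AngII, 7.34 ± 0.07 in low sodium and 7.27 ± 0.20 in normal sodium. In the 4 comparisons between groups the largest differences were for AngII on normal sodium, 0.17 ± 0.16 for Myl2 and 0.17 ± 0.14 for Myl3, and the smallest adjusted p was 0.709. The Myl2 value depended on the processing: it was 0.42 ± 0.20 with normexp background correction, 0.38 ± 0.17 in the authors' values and 0.08 ± 0.17 without the normal sodium array of replicate 1. For low sodium without AngII, Myl2 had 0.09 ± 0.16, against 0.36 ± 0.20 with normexp and 0.29 ± 0.17 in the authors' values. It had 0.003 without the normal sodium array of replicate 1.

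Myl4, the essential light chain of atrium and fetal ventricle, had the smallest range of the 8 genes under this scaling, 0.34, and 12.8% of tested probes had a smaller SD within groups. In the authors' values its range was 0.57, against 0.33 for Myh6 and 0.34 for Actc1 and Myl3, and with normexp it was 0.63, against 0.45 for Myl3. It had 7.10, 6.95 and 6.86 in low sodium with AngII, and 6.80, 7.03 and 6.97 in normal sodium with AngII. It had 6.88, 6.78 and 6.99 in low sodium and 6.87, 7.07 and 6.76 in normal sodium. The group means were between 6.88 and 6.97, and the AngII interval of -0.13 to 0.25 spans no change.

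Myl4 was far above background here, at 163224 to 244886 intensity units, on arrays where 6 of the 8 atrial markers were also above background throughout and Bmp10 on none. Whether its probe also binds another transcript was not tested. The ratio of Myl4 to Myl3 was 0.02, -0.01 and 0.19 in low sodium with AngII, and -0.19, -0.08 and -0.08 in normal sodium with AngII. Without AngII it was 0.01, -0.23 and 0.05 on low sodium, and 0.07, -0.04 and 0.04 on normal sodium. All 3 values of low sodium with AngII were above those of normal sodium with AngII, with a mean difference of 0.19. All 3 values of normal sodium with AngII were below those of normal sodium, with a mean difference of -0.14. Both had an exact permutation p of 0.1, the smallest possible, and an adjusted p of 0.6. Among all single probes, 22.2% did not overlap in the former comparison and 13% in the latter. In the authors' values the ratio of normal sodium with AngII overlapped that of normal sodium.

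Myl7, the atrial regulatory light chain, varied more than any other member, over a range of 4.06 log2 units or 16.7-fold. Its values were -1.24, 0.17 and -3.89 in low sodium with AngII, and -1.72, -3.87 and -2.30 in normal sodium with AngII. They were -0.03, -2.17 and 0.08 in low sodium, and -1.06, -0.62 and -2.98 in normal sodium. The highest and the lowest array belonged to the same group, low sodium with AngII, at 1951 and 127 intensity units against local backgrounds of 26 and 19.5. The pooled within-group SD was 1.47, above that of 99.8% of tested probes.

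Against that spread the mean AngII effect on Myl7 was -1.01 ± 0.74 (95% interval -2.65 to 0.62, adjusted p = 1.00) and the mean low sodium effect 0.91 ± 0.74 (adjusted p = 0.659). Low sodium was higher in 4 of 6 slide pairs, and AngII lower in 4 of 6. The ratio of Myl7 to Myl2 had a mean AngII effect of -1.13 (exact permutation p = 0.165, adjusted p = 0.758), and -0.96 without the normal sodium array of replicate 1. Its mean was -0.02 ± 1.86 (SD, n = 3) in low sodium with AngII, -1.01 ± 1.05 in normal sodium with AngII, 0.99 ± 1.34 in low sodium and 0.23 ± 1.15 in normal sodium.

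The atrial markers did not follow Myl7 as a set, and their correlations with it ran in both directions. Sln, sarcolipin, an inhibitor of the calcium pump that is enriched in rat atria, spanned 5.23 log2 units and correlated with Myl7 at Pearson's r = 0.53 over the 12 arrays. Mybphl, another atrial gene, was well above background on 7 of 12 arrays (r = 0.50), and Kcnj5, a potassium channel, was above it on all 12 (r = 0.58). Nppa, atrial natriuretic peptide, had r = -0.03 and Bmp10 0.05, while Gja5 had -0.22, Kcnj3 -0.24 and Pam -0.50. The signal summed over the 8 atrial markers was between 3.89 and 3.97 in low sodium with AngII, and between 4.06 and 4.30 in normal sodium with AngII. It was between 3.70 and 4.02 in low sodium and between 3.59 and 4.26 in normal sodium. The sum is weighted toward the brightest markers. Medians over the 12 arrays were 2.88 for Pam and 1.71 for Kcnj5, against -0.36 for Sln and -6.60 for Mybphl. The part of atrial tissue in the Myl7 values was not tested.

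Among 11137 genes, the one most like Myl7 over the 12 arrays was H19, an imprinted non-coding RNA that is abundant in fetal tissue, with r = 0.96 and Spearman's rho = 0.94. H19 had 0.78, 1.41 and -1.77 in low sodium with AngII, and 0.01, -1.05 and 0.06 in normal sodium with AngII. It had 1.18, -0.11 and 1.83 in low sodium, and 0.57, 0.52 and -1.17 in normal sodium. Like Myl7, it was lowest on the replicate 3 array of low sodium with AngII. With group means removed r was 0.97, and with slide means removed 0.96. The next were Tmem11 (r = 0.90) and Smarcb1 (r = 0.88), both with ranges under 0.4, and the most opposed was Prkch (r = -0.88). These genes were picked as the extremes of the search, so the correlations are a description.

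**Figure D4:**
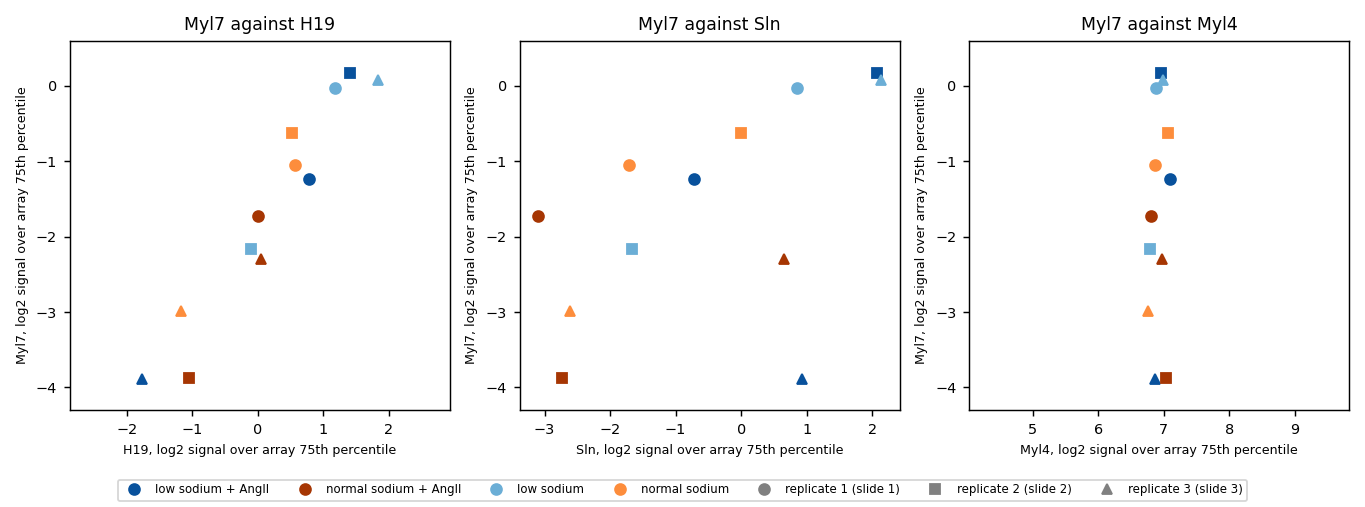
Myl7 (y axis) against H19, Sln and Myl4 (x axes), all log2 signal over the array's 75th percentile, 1 point per array, with colour for the group and shape for the replicate. H19 follows Myl7 (r = 0.96), Sln does so loosely (r = 0.53), and Myl4 stays within 0.34 log2 units.

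The same search was run for 4 other members. Nearest to Myh7 were Pdlim1 (r = 0.92), Mb, myoglobin (r = 0.91), and Gmpr (r = 0.90), with Slc39a5 most opposed (r = -0.89). Nearest to Myh6 were Nme2 (r = 0.96), Chchd10 (r = 0.95) and Rpl41, a ribosomal protein gene (r = 0.93), which were 0.89, 0.86 and 0.78 without the normal sodium array of replicate 1. Dynlt2b was most opposed (r = -0.93). Nearest to Acta1 were Copg2 (r = 0.91), Chek1, a checkpoint kinase (r = 0.88), and Abo2 (r = 0.88), with Zdhhc1 most opposed (r = -0.91). Nearest to Myl4 were Tpsb2, a mast cell tryptase (r = 0.87), Parp3 (r = 0.87) and Slco3a1 (r = 0.86), with Irf1, an interferon regulatory factor, most opposed (r = -0.88).

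Among the members themselves, 28 pairs were correlated over the 12 arrays, and 3 passed adjustment over the 28 by both Pearson's r and Spearman's rho. All points of a correlation share the scale of their array, and permuting the arrays breaks that link. The p-values therefore do not separate a shared scale from variation of the genes themselves. Myh6 and Actc1, the adult heavy chain and the adult actin, had r = 0.98 and rho = 0.98 (permutation p = 1e-05, the smallest 100000 resamples can give, adjusted p = 0.00028). Leaving out the 2 arrays farthest from the median of Myh6 gave r = 0.96, removing slide means gave 0.97, and the authors' values gave 0.97.

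Myl2 and Myl3, the light chains of the adult ventricle, had r = 0.84 and rho = 0.76 (permutation p = 0.0007 and 0.0055, adjusted p = 0.0095 and 0.0306), with r = 0.75 without the 2 extreme arrays, 0.62 in the authors' values and 0.66 with normexp. Myh7 and Myl3 had r = 0.77 and rho = 0.80 (permutation p = 0.0028 and 0.0024, adjusted p = 0.0259 and 0.0167), with r = 0.59 without the 2 extreme arrays, 0.73 in the authors' values and 0.82 with normexp. Within slides these pairs had r = 0.79 and 0.68. Both atrial light chains, Myl4 and Myl7, had r = 0.24 (permutation p = 0.444), and both actins r = -0.09 (permutation p = 0.792), which was 0.58 without the normal sodium array of replicate 1. Myh6 and Myl3 had r = 0.23, which was 0.86 without the normal sodium array of replicate 1, and Actc1 and Myl3 had 0.36, which was 0.92 without it. Myh6 and Myl2 had -0.01, which was 0.78 without that array. Actc1 and Myl2 had 0.10 and 0.80, and Myh6 and Acta1 -0.24 and 0.43, with and without it.

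**Figure D5:**
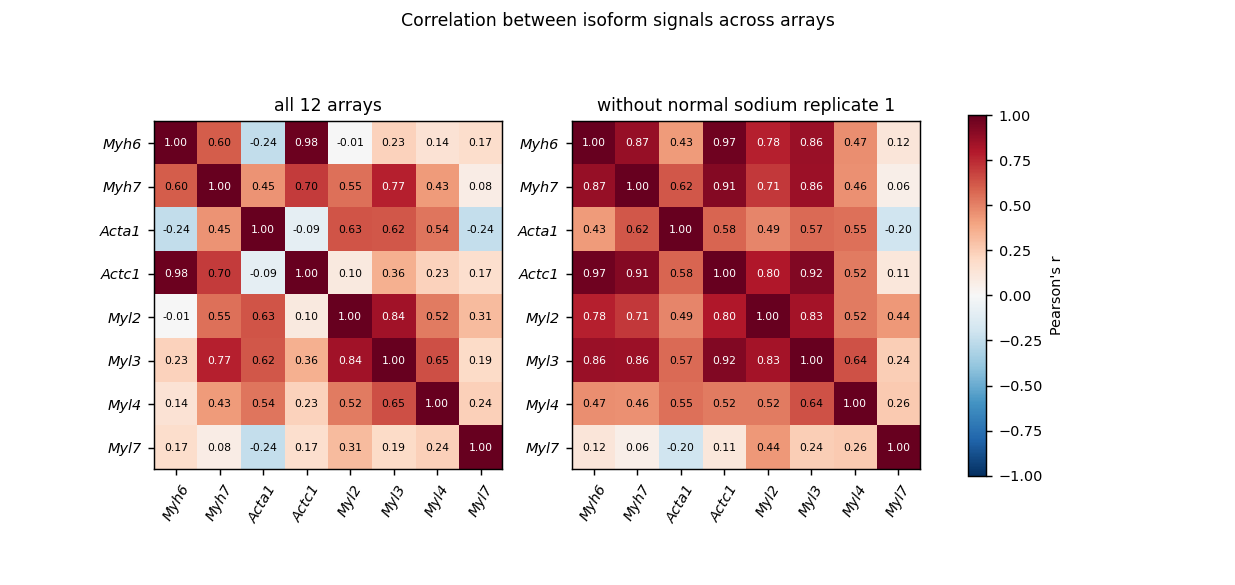
Pearson's r between the 8 genes over the 12 arrays (left) and over the 11 arrays without normal sodium replicate 1 (right), with red for positive and blue for negative values. Myh6 and Actc1 stay at 0.98 and 0.97, while Myh6 and Myl3 have 0.23 with that array and 0.86 without it.

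None of the genes around these isoforms passed the test either. Of 23 other myosin and actin genes 18 were tested, and 0 were higher and 0 lower in each comparison. The smallest p there belonged to Myl1, a skeletal essential light chain, at 1.63 ± 0.47 for AngII on normal sodium (adjusted p = 0.669), and Actg1, cytoplasmic gamma-actin, at -0.46 ± 0.14 for low sodium without AngII (adjusted p = 0.615). The median of the list was 0.17 for AngII on normal sodium, against 0.02 for all probes. In that comparison all 7 smooth muscle markers were above 0, with a median of 0.64, and 0 passed the test. Acta2, smooth muscle actin, which is in both lists, had 0.61 ± 0.20 and Lmod1 1.74 ± 0.51 (adjusted p = 0.669 for both). Lmod1 was near the floor, at 7.65, 6.28 and 25.3 intensity units in normal sodium. It was well above background on 8 of 12 arrays, and Cnn1 on 11. Their summed signal was between 2.84 and 3.87 in normal sodium with AngII and between 2.39 and 3.11 in normal sodium. For AngII on normal sodium all 3 blood markers were above 0 as well, with a median of 0.71, and 4 of 5 fibroblast markers, with a median of 0.29. The part of these cell types in the list was not tested.

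Of 23 sarcomere and thin filament genes 19 were tested, with 0 passing in either direction. Tpm3, a slow-muscle tropomyosin, had -0.43 ± 0.13 for low sodium with AngII (adjusted p = 0.312) and Tpm2, beta-tropomyosin, 0.82 ± 0.33 for AngII on normal sodium (adjusted p = 0.669), the comparison in which the smooth muscle markers had a median of 0.64. Tpm2 had 0.73 ± 0.33 for low sodium without AngII and -0.005 ± 0.33 for AngII on low sodium. The smooth muscle markers had medians of 0.66 and -0.04 there, the blood markers 0.26 and 0.02, and the fibroblast markers -0.19 and -0.07. For AngII on normal sodium the blood markers had a median of 0.71 and the fibroblast markers 0.29. The part of any cell type in the Tpm2 values was not tested. For low sodium with AngII 3 of 19 genes were above 0, with a median of -0.14, against 41.8% of all probes and a median of -0.05. For AngII on normal sodium 15 of 19 were above 0, with a median of 0.08, against 54.2% of all probes.

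Of 21 transcription factors and thyroid hormone receptors that act on these promoters 18 were tested, with 0 passing. Srf, serum response factor, which binds the CArG box, had 0.39 ± 0.12 for the mean low sodium effect (adjusted p = 0.222). Hand2, a cardiac helix-loop-helix factor, had an interaction of -1.08 ± 0.26 (adjusted p = 0.857). All 13 fetal programme genes outside the 8 were tested and 0 passed. In that list Nppb, brain natriuretic peptide, had -1.14 ± 0.25 for the mean low sodium effect (adjusted p = 0.144) and Nppa -1.78 ± 0.58 (adjusted p = 0.253).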

How the data were processed

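Left ventricular RNA was measured on 12 one-colour (Cy3) arrays, 3 in each of 4 groups named by the sample titles. The file headers credit the deposited intensity values to Agilent Feature Extraction 10.7.3.1, which subtracted background and detrended each array without scaling between arrays; the submitters' processing notes name version 11.0.1.1, with R 3.3.04 and limma. Besides flags of 0 or 1, further deposited columns hold median pixel intensities, for a spot itself and for the background around it. The authors' deposited log2 matrix (20438 probes) was normalised between arrays by a method not given in the sources used here, and served as an alternative. Its columns had medians of 8.81 to 8.95 and followed their own array (Spearman's rho 0.996 to 0.999), so the scale is log2 and uncentred.

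After removal of 1377 control spots and of the 296 to 421 spots that an array's flags mark as outliers, log2 signals were reduced by the 75th percentile of their array over 42877 spots. Probes well above background on all 3 arrays of at least 1 group were tested (20020 of 30367). Target accessions were matched to RefSeq symbols (GRCr8, names only), which gave 18758 probes 1 symbol and 11609 none; where a gene had several tested probes, the brightest stood for it. A limma model (version 3.58.1, R 4.3.3) gave each group a mean over the 12 arrays, with Benjamini-Hochberg adjustment over all tested probes at 0.05. Ratios were tested by exact two-sided permutation of arrays, and correlations by 100000 resamples (Python 3.11.15, scipy 1.17.1). The fit was tested on simulated data. The number of arrays limits the precision.

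The members and gene lists were chosen with earlier results of these data known. The text names all 8 members. It names from each list its members past the threshold or, with none, the 2 with the smallest p. For Myh7, Myh6, Acta1, Myl4 and Myl7 it names the 3 most and the 1 least correlated gene. Marker lists serve as values beside results. Alternatives were other scalings, background corrections, probe filters, array weights, the slide as a block and leaving out arrays or slides.

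Replicate number and slide are the same factor. After group means were removed, same-numbered arrays correlated above 0.1 in 17 of 18 pairs (0.0469 to 0.432), so not in every pair.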

Additional observations from a re-analysis of the deposited data

Results flagged for a closer look

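The ratio of Myl4, the atrial and fetal essential light chain, to Myl3, its ventricular counterpart, moved in opposite directions with AngII on the 2 diets. On low sodium it was higher with AngII on all 3 slides, by 0.02, 0.22 and 0.14 on the log2 scale, and on normal sodium it was lower on all 3, by -0.26, -0.04 and -0.11. The difference between these effects was 0.264, and it was not tested. It was picked out because, under this scaling, every slide pair went one way on one diet and the other way on the other diet. No other ratio and no single gene of the 8 did so. On low sodium the groups overlapped (exact permutation p = 0.5). On normal sodium the largest difference, -0.26, was against the normal sodium array of replicate 1. In the authors' values slide 2 of normal sodium was not lower. Myl4 and Myl3 had 17.605 and 18.292 there with AngII, against 17.522 and 18.213 without. Over 23 alternatives the mean effect was between 0.04 and 0.19 on low sodium and between -0.28 and -0.08 on normal sodium.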

How the results depend on the processing

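Over 24 alternatives 0 of 8 genes passed in any comparison. No ratio passed under 23 alternatives, which says nothing for the comparisons of 3 arrays against 3, whose smallest possible p is 0.1. Of 1400 gene differences (25 alternatives, counting the mean over a gene's probes, which is the same value for genes with 1 probe), 3 took the opposite sign of a value at least as large as its standard error: Myl7 mean AngII was 0.0156 with array weights, Myh6 AngII on normal sodium was 0.0131 without slide 1, and Myl7 AngII on normal sodium was 0.00617 without slide 2; the cause was not tested. A further 121 differences and 31 of 552 ratios changed sign within their standard error.

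The count of probes called, 0 in each comparison, was most changed by array weights, to 842 for low sodium with AngII, 413 for the mean low sodium effect and 3 for AngII on low sodium. For low sodium with AngII it was 4 with the array median, 1 with quantile normalization, 3 with normexp and 2 in the authors' values. For AngII on normal sodium it was 6 with normexp and 5 in the authors' values, and for the mean low sodium effect 4 with normexp and 1 with no filter on dim probes. Leaving out 1 array gave 0 to 9 for AngII on normal sodium, 0 to 3 for low sodium with AngII, 0 to 20 for the mean low sodium effect and 0 to 1 for low sodium without AngII; the 9 came from leaving out low sodium replicate 1 and the 20 from leaving out replicate 2 of normal sodium.

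With the replicate block (slide), 0 genes and 0 probes passed; Acta1 mean AngII stayed at 0.48 (adjusted p = 1.00), and Myh7 mean low sodium at -0.19 (adjusted p = 0.375). The range of Myh6 over the arrays was 0.83 log2 units here, 0.50 with normexp and 0.33 in the authors' values. The alternative that scales on the 75th percentile over probes, in place of the spots used in the main fit, was chosen after seeing the data.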
